A study of Caenorhabditis elegans with 4 samples.

Results

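FMRFamide-like peptide (FLP) genes and the genes that process and package peptides in dense core vesicles were examined in adult worms of the nematode Caenorhabditis elegans. A gene was taken as a member if a probe carried only its symbol in the platform annotation and that symbol was flp followed by a number, or was egl-3, egl-21, sbt-1, ida-1, unc-31, pgal-1, cpd-1, hid-1 or cab-1. This gave 31 members, 22 FLP peptide genes and 9 vesicle and processing genes, of 14943 genes on the array. RNA of wild-type adults, in 4 numbered preparations (preps), was hybridised on 4 two-colour arrays against a wild-type mixed reference RNA. On every array the adult RNA was in channel 2 and the mixed reference in channel 1, per the labels, which name no sex, age in days or culture, and do not say what the reference was mixed from. Each value below is a log2 ratio of the 2 channels. The numerator is not stated, and a positive value is likely to mean more RNA in adults than in the mixed reference, because each array is labelled as adult against reference with the adult RNA in channel 2. No array had its channels swapped, so the dye effect of a gene and its difference between adults and mixed reference cannot be told apart.

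Neuropeptides are cut out of larger precursors. In the dense core vesicles of neurons and other secretory cells, a convertase cuts the precursor at basic residues, a carboxypeptidase trims the ends and amidating enzymes modify the new C terminus, which completes the RF-amide end typical of FLP peptides. The vesicles release their contents when calcium rises, and most FLP peptides act through G protein-coupled receptors. In worms these peptides modulate locomotion, feeding, egg laying, sleep and sensory responses.

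Each array had between 21243 and 21501 probes with a value, and the arrays correlated with one another at Pearson's r between 0.659 and 0.755 over probes, which are not independent replicates. Germline and oocyte genes, which mark adults with gonads, had a median of the mean log2 ratios of 1.06, and all 17 tested were called positive. Positive calls were made for 5 of 10 intestinal genes and 3 of 9 body wall muscle genes, with no negative call in either list, where 23.2% of all genes tested were called positive and 21.2% negative. The medians were 0.78 for the intestinal and -0.13 for the muscle genes, so the muscle list did not stand on one side. A call here and below is an adjusted p under 0.05 in limma, fitted over 14935 genes against a log2 ratio of 0. In whole worms, fewer cells of a type and less RNA per cell cannot be told apart.

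Among the vesicle and processing genes, sbt-1, pgal-1, ida-1, egl-3 and egl-21 had some of the most negative means on the arrays. They stood at percentile 1.16 or lower of the means of all genes tested, while cpd-1 stood at 13.4 and unc-31 at 24.4. The median of the mean log2 ratios of the 9 vesicle and processing genes was -2.19, beside a median of 0.06 over all genes tested, and 8 of the 9 were called negative, where 21.2% of all genes tested were called negative. None was called positive, against 23.2% of all genes tested. The FLP peptide genes followed, with a median of -1.63 and 20 of 22 called negative, none positive. A mean of -1 or lower with a call, which 8.05% of all genes had, was reached by 19 FLP genes and 6 vesicle and processing genes. All 4 arrays were negative for 19 FLP genes and 8 vesicle and processing genes, as for 27.3% of all genes with 4 values.

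**Figure D1:**
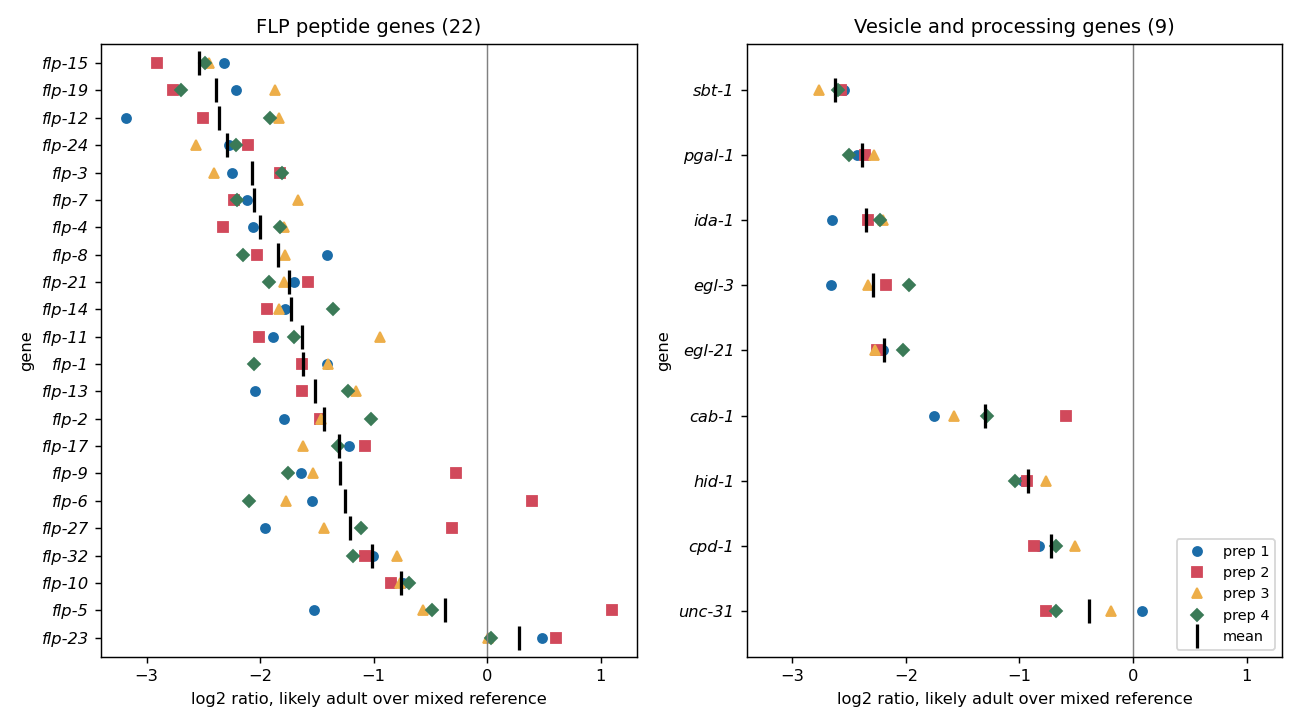
Log2 ratio (likely adult over mixed reference) of each member on preps 1 to 4, with FLP peptide genes on the left and vesicle and processing genes on the right, ordered by mean; symbols mark the preps and black bars the means. The 4 values of sbt-1, pgal-1, ida-1, egl-3 and egl-21 all lie below -1.9, while flp-23, flp-5, flp-6 and unc-31 have values on the positive side on at least 1 prep.

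Of the processing genes, sbt-1, which encodes a chaperone of the neuropeptide convertase, had the lowest mean. Its log2 ratios were -2.55, -2.57, -2.77 and -2.60 on preps 1 to 4, with a mean of -2.62 ± 0.10 (SD, n = 4), a ratio 6.15-fold lower, likely in adults. The convertase gene itself, egl-3, had -2.66, -2.18, -2.34 and -1.98, with a mean of -2.29 ± 0.29 (SD, n = 4). The chaperone gene and the convertase gene were thus low on all 4 arrays, and their ranges overlapped. The carboxypeptidase gene egl-21, whose product removes the basic residues left by the convertase, had -2.20, -2.25, -2.27 and -2.03, with a mean of -2.19 ± 0.11 (SD, n = 4). The gene pgal-1, which encodes the lyase of the last amidation step, had -2.43, -2.36, -2.28 and -2.50, with a mean of -2.39 ± 0.09 (SD, n = 4). The 4 values of pgal-1 all lay below the 4 values of egl-21, by a narrow margin. The limma adjusted p of these 4 genes lay between 2.65e-05 and 4.36e-05.

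A second carboxypeptidase gene, cpd-1, was less negative, at -0.83, -0.87, -0.51 and -0.68 on preps 1 to 4. Its mean was -0.72 ± 0.16 (SD, n = 4; limma adjusted p = 0.00398), and its range did not overlap that of egl-21. Among processing genes outside the members, 5 were listed and 3 tested. Of these, 1 was called negative (33.3%, against 21.2% of all genes tested) and none positive (against 23.2%). The gene called negative was pamn-1, which encodes an amidating enzyme, at -1.52 ± 0.16 (SD, n = 4; limma adjusted p = 0.000121). The convertase genes bli-4, which acts in the epidermis, and aex-5, which acts in the defecation cycle, were not called and had means of 0.24 ± 0.27 and 0.15 ± 0.24 (SD, n = 4 each).

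The other members encode vesicle proteins, and their ratios were spread out. The gene ida-1, for a phosphatase-like membrane protein of dense core vesicles, had -2.65, -2.34, -2.20 and -2.22 on preps 1 to 4 and a mean of -2.35 ± 0.21 (SD, n = 4; limma adjusted p = 3.44e-05). The gene hid-1, which keeps peptides in dense core vesicles during their maturation, had -0.97, -0.94, -0.76 and -1.04, with a mean of -0.93 ± 0.12 (SD, n = 4; limma adjusted p = 0.00111). These ranges did not overlap, and the mean of ida-1 lay between those of pgal-1 and egl-3. The gene cab-1, whose product binds the Rab activator AEX-3, had -1.76, -0.59, -1.58 and -1.29, with a mean of -1.30 ± 0.51 (SD, n = 4; limma adjusted p = 0.00148). Its value on prep 2 was the highest by 0.70.

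The gene unc-31, which encodes the CAPS protein needed for dense core vesicle release, was not called. Its log2 ratios were 0.08, -0.77, -0.20 and -0.68 on preps 1 to 4, with a mean of -0.39 ± 0.40 (SD, n = 4; 95% interval from -0.80 to 0.02; limma adjusted p = 0.106). The positive value was that of prep 1, and without prep 1 the mean was -0.55 and the gene was called (limma adjusted p = 0.0429). All 4 values of unc-31 lay above those of sbt-1, pgal-1, ida-1, egl-3 and egl-21.

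The genes for vesicle formation, transport and release outside the members, 17 listed and 15 tested, were less uniform, with a median of -0.47. Of these, 7 were called negative (46.7%, against 21.2% of all genes tested) and 2 positive (13.3%, against 23.2%). The most negative were unc-13, a priming factor for vesicle release, at -1.81 ± 0.30 (SD, n = 4), and tom-1, the tomosyn inhibitor of release, at -1.38 ± 0.53 (SD, n = 4). The kinesin gene unc-104, which moves both synaptic and dense core vesicles along axons, had -1.12 ± 0.22 (SD, n = 4). The 2 positive calls, named after their values were seen, were vps-51 at 0.66 ± 0.35 and vps-53 at 0.39 ± 0.16 (SD, n = 4 each), subunits of tethering complexes that act at endosomes and the Golgi. Other subunits of these complexes, vps-50 at 0.13 ± 0.10 and vps-52 at 0.02 ± 0.31 (SD, n = 4 each), were not called.

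The 8 FLP genes with the lowest means were flp-15, flp-19, flp-12, flp-24, flp-3, flp-7, flp-4 and flp-8. The lowest was flp-15, which encodes ligands of the receptor NPR-3, at -2.32, -2.91, -2.45 and -2.49 on preps 1 to 4. Its mean was -2.54 ± 0.26 (SD, n = 4; 5.83-fold lower, likely in adults; limma adjusted p = 3.44e-05). It stood at percentile 0.549 of the means of all genes tested. The gene flp-19 had -2.21, -2.77, -1.87 and -2.70, with a mean of -2.39 ± 0.42 (SD, n = 4). The gene flp-12, one of those with a described role in male turning during mating, had -3.18, -2.51, -1.84 and -1.92, with a mean of -2.36 ± 0.63 (SD, n = 4). Its value on prep 1 was the lowest of any member on any array, with probes averaged per gene. The gene flp-24 had -2.28, -2.11, -2.56 and -2.22, with a mean of -2.29 ± 0.20 (SD, n = 4). The ranges of flp-15, flp-19, flp-12 and flp-24 overlapped, so these data do not rank them.

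Further up, flp-3 had -2.24, -1.83, -2.40 and -1.81 on preps 1 to 4, with a mean of -2.07 ± 0.30 (SD, n = 4). The gene flp-7, whose peptides link serotonin signalling to fat use in the intestine, had -2.12, -2.23, -1.67 and -2.20, with a mean of -2.06 ± 0.26 (SD, n = 4). The gene flp-4 had -2.06, -2.33, -1.79 and -1.83, with a mean of -2.002 ± 0.25 (SD, n = 4). The ratios of these 3 genes were between 4.01-fold and 4.20-fold lower, likely in adults. The gene flp-8 had -1.42, -2.03, -1.78 and -2.15, with a mean of -1.84 ± 0.33 (SD, n = 4), and like flp-12 has a described role in male turning. The limma adjusted p of these 8 genes lay between 3.44e-05 and 0.000162.

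Among the middle of the FLP list were genes with known roles in aggregation, sleep and arousal. The gene flp-21, whose peptide activates the receptor NPR-1 that controls aggregation and feeding behaviour, had a mean of -1.75 ± 0.14 (SD, n = 4), and its 4 values lay between -1.92 and -1.58. The gene flp-14 had -1.73 ± 0.26 (SD, n = 4). The gene flp-11, made by the sleep neuron RIS, had -1.64 ± 0.48 (SD, n = 4), with -0.94 on prep 3 as its highest value. The gene flp-13, made by the ALA neuron and needed for sleep after stress, had -1.52 ± 0.41 (SD, n = 4). The gene flp-2, which promotes arousal, had -1.44 ± 0.32 (SD, n = 4). The gene flp-17, made by the BAG sensory neurons and active in the control of egg laying, had -1.31 ± 0.23 (SD, n = 4). None of these 6 genes had a positive value on any prep, and their adjusted p in limma lay between 6.93e-05 and 0.000437.

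Among the called FLP genes, flp-32 and flp-10 had the means closest to 0. The gene flp-32 had -1.01, -1.08, -0.80 and -1.18 on preps 1 to 4, with a mean of -1.02 ± 0.16 (SD, n = 4; limma adjusted p = 0.00084). The gene flp-10, which acts with flp-17 to inhibit egg laying through the receptor EGL-6, had -0.74, -0.84, -0.77 and -0.69, with a mean of -0.76 ± 0.07 (SD, n = 4; limma adjusted p = 0.00248). Its SD, over means of 2 probes, was the smallest of the 31 members. With its probes averaged, flp-10 lay above flp-17 on all 4 preps. The lower of its probes alone had -1.14 on prep 2, below flp-17 at -1.08.

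A group of FLP genes differed widely between preps and had the highest value on prep 2. On prep 2, flp-9 had -0.28, against -1.64, -1.53 and -1.75 on preps 1, 3 and 4. The gene flp-6, a sensory neuron peptide gene, had 0.40 on prep 2, against -1.54, -1.78 and -2.10. The gene flp-27 had -0.31 on prep 2, against -1.96, -1.44 and -1.11. Together with flp-5, whose value on prep 2 is given next, and cab-1, these were 5 of the 31 members (16.1%) whose value on prep 2 exceeded all others by over 0.5, which held for 4.03% of all genes with 4 values. The size of 0.5 was chosen after the values were seen. For the other preps such a high value was found in 1 member, flp-11 on prep 3. A value lower than all others by over 0.5 was found in 3 members, flp-12, flp-27 and flp-5, each on prep 1 (9.68%, against 4.69% of all genes). The means were -1.30 ± 0.69 for flp-9 (limma adjusted p = 0.00364), -1.26 ± 1.12 for flp-6 (adjusted p = 0.0234) and -1.21 ± 0.69 for flp-27 (adjusted p = 0.00529; SD, n = 4 each). The call of flp-6 was lost without prep 3 (mean -1.08, adjusted p = 0.102) and without prep 4 (mean -0.97, adjusted p = 0.101). Why prep 2 stood apart for these genes was not tested.

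Of the 22 FLP genes, flp-5 and flp-23 were not called. The gene flp-5 had -1.52, 1.10, -0.57 and -0.49 on preps 1 to 4, with a mean of -0.37 ± 1.09 (SD, n = 4; 95% interval from -1.18 to 0.44; limma adjusted p = 0.424). Prep 2 was high and prep 1 low. Without prep 2 the mean was -0.86 and the gene was called negative (adjusted p = 0.024), while without prep 1 the mean was 0.014. The gene flp-23 had 0.48, 0.60, 0.01 and 0.03, with a mean of 0.28 ± 0.31 (SD, n = 4; 95% interval from -0.09 to 0.65; limma adjusted p = 0.186). It was the FLP gene with no negative value, and all 4 of its values lay above those of each of the 20 called FLP genes except flp-6.

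The peptide genes were set beside other peptide, receptor and neuronal genes to show how the ratios were distributed. The 53 nlp genes, which encode other neuropeptide precursors and some epidermal peptides, had a median of -1.11, with 43 called negative and 2 positive. Their lowest means were those of nlp-12 at -2.59 ± 0.43 and nlp-8 at -2.58 ± 0.39 (SD, n = 4 each). Of the insulin-like peptide genes, 21 listed and 20 tested, 11 were called negative and none positive, with a median of -0.64 and the lowest means in ins-35 at -1.92 ± 0.22 and ins-17 at -1.76 ± 0.37 (SD, n = 4 each). The shares called negative were 90.9% for FLP genes, 81.1% for nlp genes and 55.0% for insulin-like genes, against 21.2% of all genes tested. Positive calls made up 3.77% of the nlp genes, against 23.2% of all genes tested. The lists were described and not tested against one another.

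**Figure D2:**
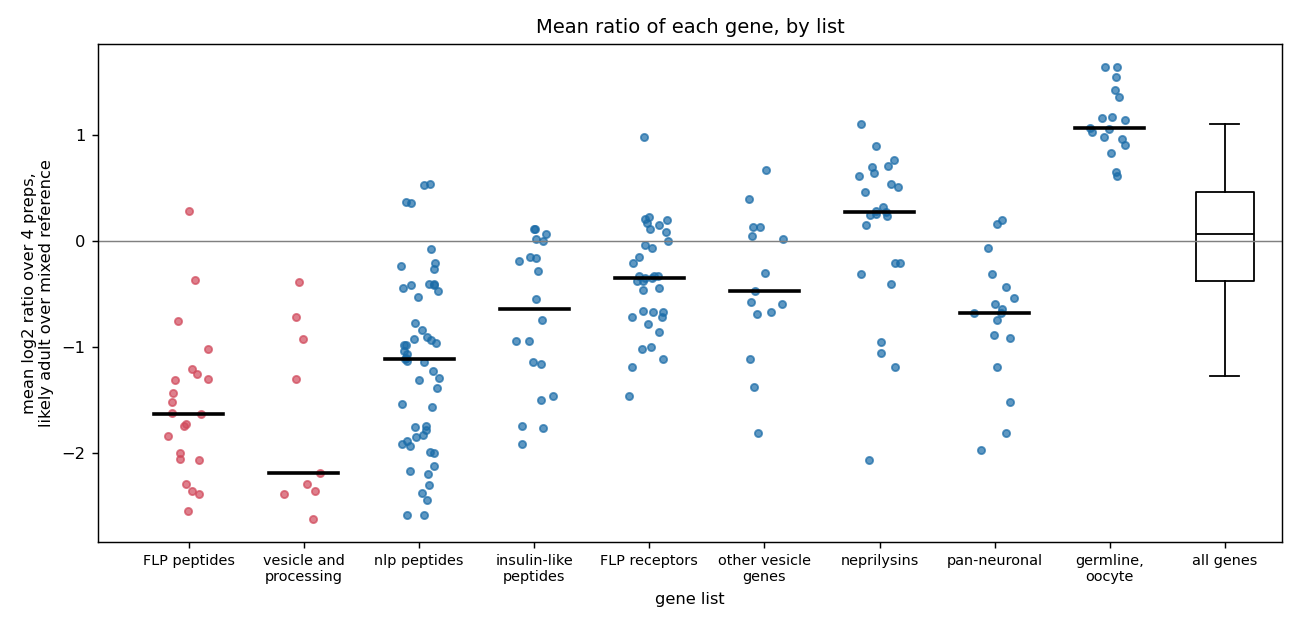
Mean log2 ratio over 4 preps (likely adult over mixed reference) of each tested gene, by list, with black lines at the list medians; the box at the right shows the quartiles and the 5th to 95th percentiles of all genes tested. The medians of the FLP peptide genes (-1.63) and the vesicle and processing genes (-2.19) lie lower than that of the pan-neuronal genes (-0.68). Single genes of these lists overlap, while the germline and oocyte genes lie above 0.

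As a list, FLP receptor genes had ratios closer to 0 than the peptide genes. No intensities were used, so ratios of dim spots cannot be told from true ratios near 0. Of 37 receptor genes listed, the frpr and dmsr families and some npr genes with egl-6, 34 were tested. They had a median of -0.35. Of these, 14 were called negative (41.2%, against 21.2% of all genes tested) and none positive (against 23.2%). The lowest means were those of dmsr-1 at -1.46 ± 0.49 and dmsr-7 at -1.19 ± 0.33 (SD, n = 4 each), both genes of G protein-coupled receptors for FLP peptides.

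Among the pairs of peptide and receptor genes chosen here from general knowledge, some overlapped in range and others did not. The peptide gene flp-13 had -2.05, -1.63, -1.16 and -1.23 on preps 1 to 4, and its receptor gene dmsr-1 had -2.03, -1.40, -0.84 and -1.60. The peptide gene flp-2 had -1.79, -1.47, -1.47 and -1.02, and its receptor gene frpr-18 had -1.52, -1.29, -0.96 and -0.69. In both cases the ranges overlapped. The receptor gene npr-1 had -0.20, -0.08, -0.10 and -0.44, with a mean of -0.21 ± 0.16 (SD, n = 4; limma adjusted p = 0.261). The receptor gene npr-3 had -0.01, -0.32, -0.34 and -0.64, with a mean of -0.33 ± 0.26 (SD, n = 4; limma adjusted p = 0.109). The ranges of their ligand genes, flp-21 for npr-1 and flp-15 for npr-3, given above, lay lower and did not overlap with them. The receptor gene egl-6 had 0.21, 0.40, -0.05 and 0.24, with a mean of 0.20 ± 0.19 (SD, n = 4; limma adjusted p = 0.285), above all values of flp-10 and flp-17. A further receptor gene for flp-13, frpr-4, had -0.33 ± 0.09 (SD, n = 4; limma adjusted p = 0.0769). The receptor gene npr-22, known for flp-7, was not analysed here.

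**Figure D3:**
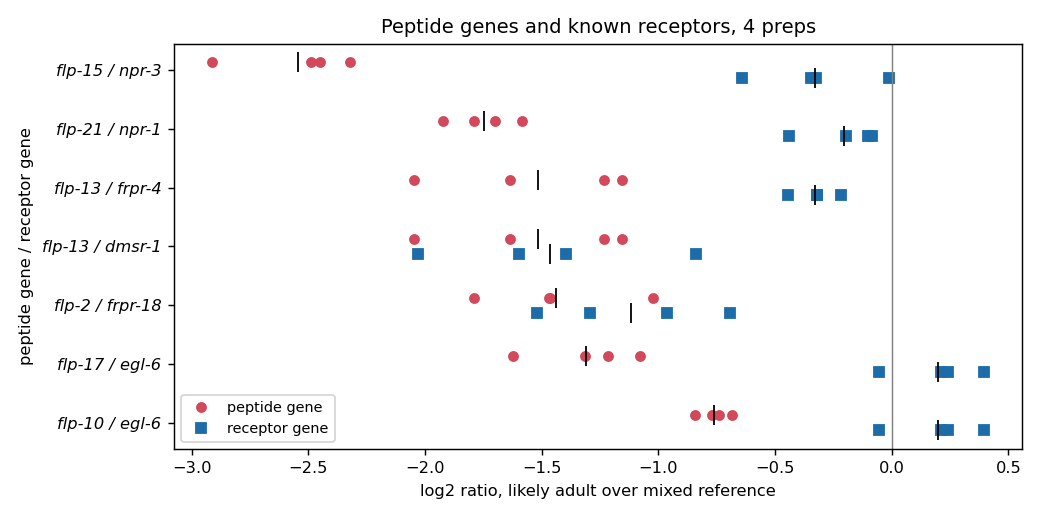
Log2 ratios (likely adult over mixed reference) of FLP peptide genes (red circles) and genes of known receptors (blue squares) on 4 preps, with black bars at the means. The receptor genes dmsr-1 and frpr-18 overlap with their peptide genes, and npr-1, npr-3, frpr-4 and egl-6 lie at higher ratios than theirs.

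The neprilysin genes, which encode peptidases of the kind that break down secreted peptides, had shares of calls near those of all genes. Their median was 0.27, and of 25 tested 4 were called negative (16%, against 21.2% of all genes tested) and 7 positive (28%, against 23.2%). The largest means in size were those of nep-26 at -2.06 ± 0.25 and nep-11 at -1.19 ± 0.35 (SD, n = 4 each).

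Most of the genes used by most neurons were also negative, with a median above those of the FLP genes and of the vesicle and processing genes. Of 17 pan-neuronal genes, 12 were called negative (70.6%, against 21.2% of all genes tested) and none positive (against 23.2%). The median was -0.68, and the lowest means were those of the synaptic genes ric-4 at -1.97 ± 0.31 and rab-3 at -1.81 ± 0.39 (SD, n = 4 each). The list was mixed, and 5 genes were not called. Their means were -0.43 for unc-119, -0.31 for snb-1, -0.07 for unc-11, 0.16 for unc-26 and 0.20 for unc-57. The median of the FLP genes was -1.79, -1.63, -1.64 and -1.78 on preps 1 to 4, and that of the vesicle and processing genes was -2.20, -2.18, -2.20 and -1.98. The pan-neuronal median differed more between preps, at -0.95, -0.84, -0.40 and -0.54. The germline and oocyte median was 0.73, 1.13, 0.78 and 1.69. The SD of the 4 array medians was 0.083 for FLP genes and 0.11 for the vesicle and processing genes, against 0.256 for the pan-neuronal and 0.442 for the germline and oocyte genes. It was also small for nlp genes (0.081), FLP receptor genes (0.086) and all genes tested (0.040). The part that the share of neurons or of germline in the RNA had in the members' ratios was not tested.

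As a setting chosen after the values were seen, each array was centred on its pan-neuronal median and the fit across all genes was repeated. In that fit 16 of the 22 FLP genes and 6 of the 9 vesicle and processing genes were called negative, where 5.81% of all genes tested were called negative and 65.0% positive. Relative to the pan-neuronal median, sbt-1 was at -1.94 (95% interval from -2.39 to -1.49), flp-15 at -1.86 (from -2.31 to -1.41) and pgal-1 at -1.71 (from -2.15 to -1.27). The genes hid-1 at -0.25, cpd-1 at -0.04, flp-32 at -0.33, flp-10 at -0.08, flp-27 at -0.52 and flp-6 at -0.57 were no longer called, with limma adjusted p between 0.0782 and 0.866. The genes unc-31 at 0.29 (adjusted p = 0.262) and flp-5 at 0.31 (adjusted p = 0.382) were on the positive side and not called, and flp-23 was called positive at 0.96 (adjusted p = 0.00206). The interval covers the spread between preps and not the choice of the 17 pan-neuronal genes.

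**Figure D4:**
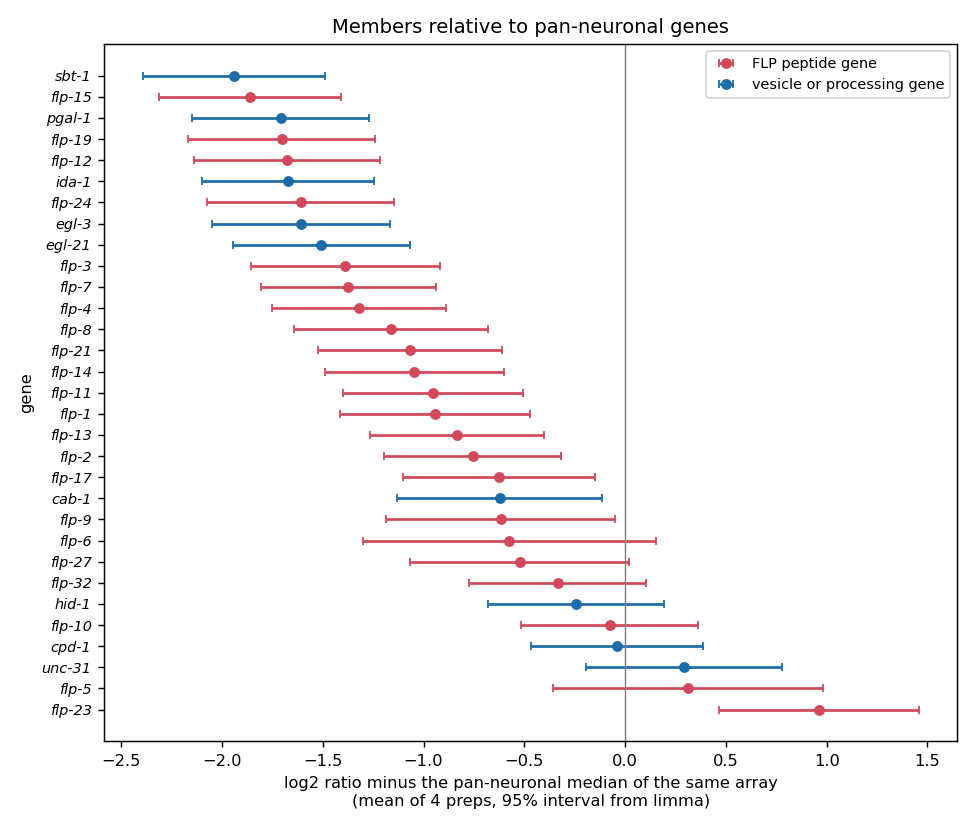
Mean log2 ratio of each member minus the pan-neuronal median of the same array, with 95% intervals from limma over 4 preps; FLP peptide genes are red, vesicle and processing genes blue. The convertase, its chaperone, egl-21, pgal-1 and ida-1 lie below -1.5. The intervals of hid-1, cpd-1, flp-10, flp-27, flp-32, flp-6, flp-5 and unc-31 include 0, and that of flp-23 lies above 0.

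A pair of probes was present for 4 of the FLP genes, flp-1, flp-4, flp-10 and flp-23, and the other members had 1 probe each. The probes of flp-1, a peptide gene of the AVK interneurons needed for normal locomotion, gave different ratios. One had -2.90, -3.25, -2.93 and -3.74 on preps 1 to 4, with a mean of -3.21 ± 0.39 (SD, n = 4; limma adjusted p over all probes = 3.67e-05), and the other had 0.08, -0.02, 0.12 and -0.37, with a mean of -0.05 ± 0.22 (SD, n = 4; adjusted p = 0.82). The mean of flp-1 over both probes, -1.63 ± 0.31 (SD, n = 4), therefore describes neither probe, and its call rests on the first. The sources used here do not give the sequence under each probe. For flp-4 the probes had means of -2.09 and -1.92, for flp-10 of -1.04 and -0.48, and for flp-23 of 0.26 and 0.30. The values of the flp-10 probes did not overlap, although both were negative on every prep.

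**Figure D5:**
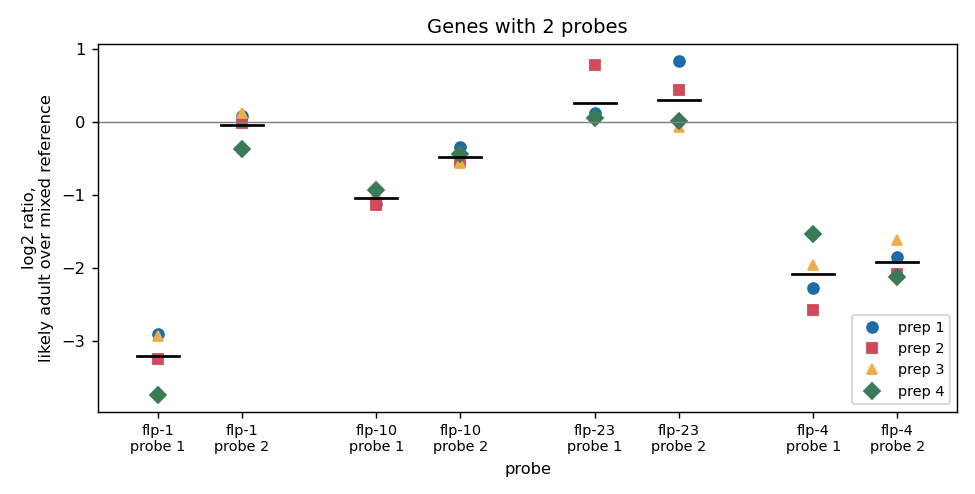
Log2 ratios (likely adult over mixed reference) of the 2 probes of flp-1, flp-10, flp-23 and flp-4 on 4 preps, with black lines at the probe means. The flp-1 probes are 3.16 apart in mean, and the other pairs are between 0.0457 and 0.567 apart.

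Of the 31 members, 11 lie on the X chromosome, 7 on IV, 5 on III, 4 on V and 2 each on I and II. X-linked genes as a whole had lower ratios, with a median of -0.17 over 2224 genes, against 0.11 over 12644 autosomal genes. Over all members the medians were close, at -1.64 for 11 X-linked genes and -1.68 for 20 autosomal genes. Of these, 90.9% of the X-linked and 90% of the autosomal members were called negative. Within the FLP genes the median was -1.84 for 9 X-linked genes, 8 of them called negative. It was -1.52 for 13 autosomal FLP genes, 12 of them called negative. Negative calls thus made up 88.9% of the X-linked and 92.3% of the autosomal FLP genes, where they made up 31.3% of all X-linked and 19.5% of all autosomal genes tested. The X-linked neighbours flp-2 and flp-3 were both negative on all 4 preps, and their ranges lay side by side without overlap, with -1.79 to -1.02 for flp-2 and -2.40 to -1.81 for flp-3.

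Of 46 tested protein-coding genes next to a member on the chromosome and no members themselves, 15 were called negative (32.6%), 5 were called positive (10.9%) and 26 had no call. Over all genes tested, 21.2% were called negative and 23.2% positive. The median of the neighbours was -0.21, which lies between those of all genes tested (0.06) and of the members' lists. Whether the neighbours differed from other genes was not tested.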

How the data were processed

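The table deposited by the authors holds log2 ratios, 1 for each of 21632 probes and 4 arrays. The unit was read from the values, since 2 to the power of the value had 3 decimals for at least 99.9% of the spots. Scanner, dyes, background correction, spot filter, centring and numerator were not given in the sources used here. No intensities were used, so signal over background is unknown and the number of arrays limits precision. Array medians lay between -0.0043 and 0.0496, and signs were kept as deposited. Of the probes, 16450 had 1 gene symbol, 247 several and 4935 none. RefSeq genes of assembly WBcel235, used for names, chromosomes and neighbours, were found for 16360 probes through the gene ID and for 8 through an accession. Probes of a gene were averaged. The fit, with limma 3.58.1 in R 4.3.3 (intercept, lmFit, eBayes, two-sided), took genes measured on 3 or more arrays, with p-values adjusted after Benjamini and Hochberg over all 14935 genes (threshold 0.05), after a check on simulated data. The reference's own spread does not enter, and since separate cultures are not stated, p-values measure the spread between preps, which may be technical.

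The members and gene lists were chosen with earlier results of these data known. By the naming rule, values of every array are given for all vesicle and processing genes, the 8 FLP genes with the lowest means, FLP genes not called and members whose probes disagree. Of other lists the 2 genes with the largest mean in size and known receptors are named, and further genes as stated. Receptor pairs come from general knowledge. Alternatives covered centring, scaling, probe averaging, the array minimum, the variance prior, array weights, title dates, a size minimum, symbols and leaving out each prep.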

Additional observations from a re-analysis of the deposited data

Results flagged for a closer look

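Of 43 sets of 4 values, the 31 members and the medians of 12 lists, 2 had a single prep far from the others, beside 2.15 at a rate of 1 in 20. That number is a rough guide only, because the sets share the same 4 arrays and some list medians are taken over the members. For flp-9 the log2 ratio on prep 2 was -0.28, and the other preps lay between -1.75 and -1.53. For the median of the vesicle and processing genes the value on prep 4 was -1.98, and the other preps lay between -2.20 and -2.18. Both kinds of value stand in the same direction as the rest of their sets. The causes were not tested.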

How the results depend on the processing

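Of the 31 members, 22 kept direction and call in all 15 alternative settings of the fit. Centring or scaling the arrays, the median of probes, the array minimums of 2 and 4, the robust prior, array weights and RefSeq symbols changed no member's direction or call. For some of these, little or no change was possible. Each member had 1 or 2 probes and values on all 4 arrays, so the probe median and the array minimums could not change its mean. The setting with RefSeq symbols reused the main fit. These settings are counted among the 15 all the same. With a minimum mean of 1 in size, 2132 genes in place of 6639 were called, and flp-10, cpd-1 and hid-1 dropped out, by construction of a smaller set. With preps 3 and 4, which share a title date, averaged first, a setting added after seeing the data, flp-6 lost its call (mean -1.03, adjusted p = 0.11). That setting stands in for the date as a random block. The correlation within dates that such a fit needs was tried and gave no value for 4 arrays in 3 dates. With arrays centred on the pan-neuronal list, also added, 10571 genes were called, 1 FLP gene was called positive, and the medians were -0.95 for FLP genes and -1.51 for vesicle and processing genes. The signs of flp-5 (0.31) and unc-31 (0.29) turned there, and this centring subtracts the same value from every gene of an array. Leaving out each prep in turn gave between 4982 and 5796 called genes, 19 to 21 negative FLP genes, 0 positive FLP genes and 8 to 9 negative vesicle and processing genes. The medians then ranged from -1.70 to -1.61 for FLP genes and from -2.24 to -2.16 for vesicle and processing genes. The mean of flp-5 then ranged from -0.86, without prep 2, to 0.014, on the other side of 0, without prep 1. The cause of these changes was not tested. Without the second probe the call of flp-1 held, and without the first it did not (mean -0.05). No paired analysis was possible because all samples form 1 group. Without intensities, ratios of dim spots cannot be told from true ratios near 0.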
